A study of Mus musculus with 3 samples.

Results

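The strong RXRα regions of mouse liver that have no RARα peak beside them numbered 2368, which was 5.62% of the 42117 RXRα regions found in the genome and 27.9% of the 8501 strong ones. An RXRα region is a stretch where RXRα coverage, counted in bins of 32 bp, reached at least 20 times the input coverage, with bins joined when they lay within 200 bp of each other. It was called strong when its highest bin reached a ratio of 60 or more, and it entered the set when no RARα peak of any score lay within 500 bp of its edges. The members were thus selected on their own RXRα, input and RARα values, so their strength and their lack of a RARα peak are descriptions here and were not tested. They are set beside the 6133 strong regions that did have a RARα peak within 500 bp, and beside the 14680 weaker regions (highest ratio from 20 to below 60) that, like them, had none.

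The chromatin came from livers of male wild type C57BL/6 mice that were 3 months old, and it was either precipitated with an anti-RXRα or an anti-RARα antibody or kept as input. There was 1 library for each, 3 in all, with no replicates, so no value carries an estimate of the variation between mice and no test between libraries was made. The RXRα and input tracks each hold the coverage of 10 M reads, and RARα was given as a list of 143280 peaks with scores from 5 to 382, whose depth the list does not show. The study describes more uniquely mapped reads for RARα than for RXRα, and more for RXRα than its track holds, so the antibodies were not compared at equal depth, and how far this set the calls of no RARα peak was not tested. Whole liver holds hepatocytes together with stellate, Kupffer and endothelial cells, and these libraries cannot tell from which cell type a bound fragment came.

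RXRα is a nuclear receptor that binds DNA mostly as the partner of another nuclear receptor, and less often as a homodimer. Its partners in liver include the retinoic acid receptors, the fatty acid receptor PPARα, the oxysterol receptors LXR, the bile acid receptor FXR and the xenobiotic receptors PXR and CAR, and it also pairs with the thyroid hormone and vitamin D receptors. Each receptor of a pair contacts a short half-site, and the spacing and orientation of the half-sites differ between partners: PPARα and RXRα homodimers are known for direct repeats spaced by a single base (DR1), LXR and thyroid hormone receptor for wider direct repeats, and FXR for inverted repeats. A strong RXRα region without RARα is therefore a place where RXRα was recovered well and the antibody against one of its partners gave no called peak.

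The sequences below reach 100 bases to each side of the centre of the highest bin, from the plus strand of NCBI37/mm9, with the half-site AGGTCA, the form GGGTCA, the form AGTTCA and the form GGTTCA or their reverse complements in capitals. The first 3 are the members with the highest ratios, and the others lie by genes of retinoid, circadian and drug metabolism that are described further on and were picked after their values were seen.

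Cpne5 intron, chr17:29347149-29347349: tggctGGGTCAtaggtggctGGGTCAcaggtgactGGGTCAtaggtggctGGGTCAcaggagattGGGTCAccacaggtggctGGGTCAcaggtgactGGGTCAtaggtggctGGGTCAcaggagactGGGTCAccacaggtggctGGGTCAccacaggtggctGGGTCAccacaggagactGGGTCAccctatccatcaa
Pdp1, chr4:11795821-11796021: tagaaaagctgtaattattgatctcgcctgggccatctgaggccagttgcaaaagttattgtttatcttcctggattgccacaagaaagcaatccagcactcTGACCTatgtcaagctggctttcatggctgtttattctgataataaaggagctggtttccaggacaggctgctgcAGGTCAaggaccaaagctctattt
Prok2, chr6:99924525-99924725: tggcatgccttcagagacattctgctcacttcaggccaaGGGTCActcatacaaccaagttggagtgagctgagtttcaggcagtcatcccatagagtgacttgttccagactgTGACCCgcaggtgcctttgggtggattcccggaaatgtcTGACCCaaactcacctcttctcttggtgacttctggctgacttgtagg
Cyp26a1, chr19:37776941-37777141: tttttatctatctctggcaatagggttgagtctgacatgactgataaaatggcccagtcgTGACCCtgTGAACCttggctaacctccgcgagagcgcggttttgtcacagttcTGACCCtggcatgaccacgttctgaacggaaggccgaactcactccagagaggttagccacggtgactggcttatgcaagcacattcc
Nr1d2 intron, chr14:19069453-19069653: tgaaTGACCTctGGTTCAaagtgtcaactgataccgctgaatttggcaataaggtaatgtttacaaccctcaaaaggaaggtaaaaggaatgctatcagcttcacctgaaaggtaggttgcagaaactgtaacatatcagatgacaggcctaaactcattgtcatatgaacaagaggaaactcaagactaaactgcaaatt
Cyp2c39, chr19:39584141-39584341: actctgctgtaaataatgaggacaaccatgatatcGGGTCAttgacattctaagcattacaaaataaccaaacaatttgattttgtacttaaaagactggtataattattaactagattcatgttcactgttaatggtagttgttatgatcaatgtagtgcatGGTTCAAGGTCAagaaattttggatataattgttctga

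The member with the highest ratio lay in an intron of Cpne5, which encodes a calcium-dependent membrane-binding copine, 27494 bp downstream of the transcription start site (TSS). Its window held 12 half-sites, each GGGTCA on the same strand, in an irregular tandem array. Its highest bin held 205 in RXRα and 0 in input, a ratio of 340, and the nearest RARα peak was 32716 bp away. The next was intergenic, 97679 bp downstream of the TSS of Pdp1, which encodes a phosphatase that activates pyruvate dehydrogenase, with a ratio of 337, 203 in RXRα and 0 in input, and it had 2 half-sites and a RARα peak at 779 bp. The member nearest to Prok2, which encodes a secreted prokineticin, had a ratio of 317 and 3 half-sites, and its nearest RARα peak was 2713 bp away. The remaining nearest genes of the 20 strongest members included Cyp3a16, Adck3, Inhbb, Gorasp2, Apol7c, Mup14, Ptplb, Rbbp8, Pvrl3, Hs6st1, Actbl2, Cxcr5, Tmem117, Hes1, Gm10655 and Palb2, with ratios from 227 to 305. Of these, Cyp3a16 encodes a drug-metabolising oxygenase and Hes1 a transcription factor of the Notch pathway. The highest bin of all 20 had an input of 0, and none of them lay within 1 kb from a TSS.

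Members were somewhat weaker and narrower than the strong regions that had a RARα peak. Their median ratio was 79.0 (interquartile range 68.0 to 99.6) against 85.0 (69.995 to 113), and their median width was 224 bp against 256 bp. Within 10 bins on either side of the highest bin, a span of about 640 bp, the median member held 91.2 reads and the median strong region with RARα 118.8. RXRα coverage averaged over the surrounding 5 kb on each side was 5.46 times the genome mean at the median member and 7.85 times at strong regions with RARα. Input over the same span was 1.54 and 1.79 times its genome mean. The members therefore sat in surroundings of lower RXRα and lower input coverage than the strong regions with a RARα peak. In a small number nearly all reads covered the highest bin, with at most 1.1 times as many reads in the whole span as over that bin. Such regions were 55 members (2.32%, 95% Wilson interval 1.79 to 3.01) and 25 strong regions with RARα (0.408%, 0.276 to 0.601). Whether their reads shared 1 start was not tested. Wilson intervals here and below cover counting error only, since regions of 1 library are not replicates.

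**Figure D1:**
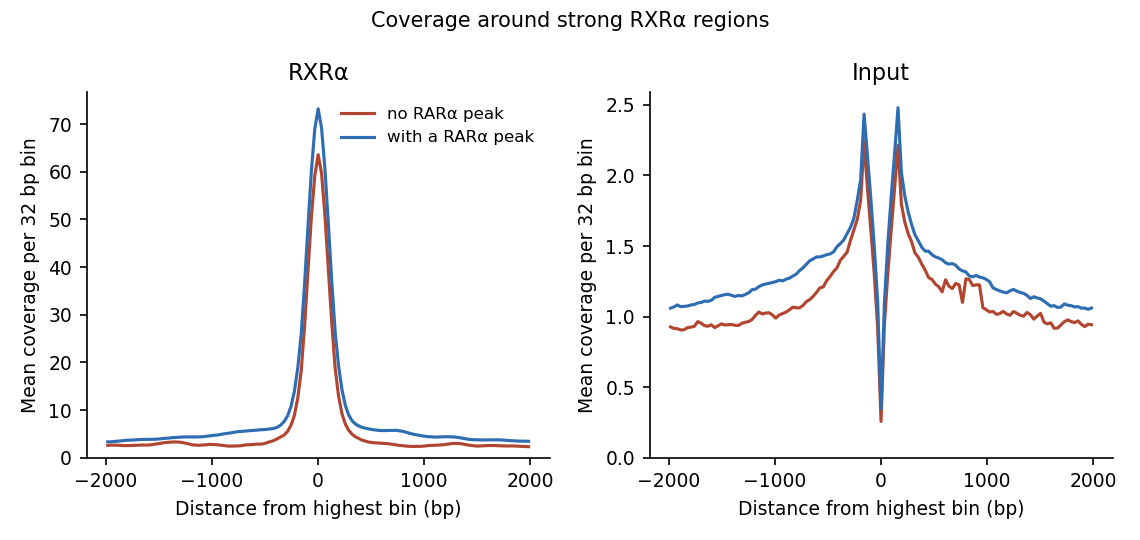
Mean RXRα coverage (left) and mean input coverage (right) per 32 bp bin, against the distance in bp from the highest bin, for 2368 strong regions without a RARα peak (red) and 6133 with one (blue). Members rise to a mean of 63.6 in RXRα and regions with RARα to 73.2, and in both classes input falls to 0.258 and 0.348 in the highest bin and reaches 2.24 and 2.43 at 160 bp upstream of it.

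The plot of coverage by distance also shows what the rule picks out in the input. The highest bin had an input of 0 in 1809 members (76.4%) and in 4201 strong regions with RARα (68.5%). Mean input at the members was 0.258 in the highest bin, 2.24 at 160 bp to one side and 2.21 at 160 bp to the other, and 1.46 at 320 bp. Because the ratio has the input of the same bin in its denominator, a bin without input reads reaches a ratio of 60 with a coverage of 37, whereas a bin with an input of 1 needs more than 60. When the largest input bin within 1 kb was used as the denominator, 14 members were left, which were 24.1% of the strong regions under that rule. With the genome mean as the only denominator there were 6810, and the membership of a single region should be read with that spread in mind.

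The share of regions without a RARα peak became smaller as RXRα became stronger. It was 46.5% of 16755 regions with a ratio from 20 to 30, 42.0% from 30 to 40 and 39.8% from 40 to 60. Among strong regions it was 31.9% of 3935 from 60 to 80, 28.0% of 1953 from 80 to 100, 22.6% of 1889 from 100 to 150 and 19.5% (16.8 to 22.5) of 724 with 150 or more. The intervals of classes that follow each other overlapped only between the last 2. Even at a ratio of 150 or more, 141 regions had no RARα peak within 500 bp.

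**Figure D2:**
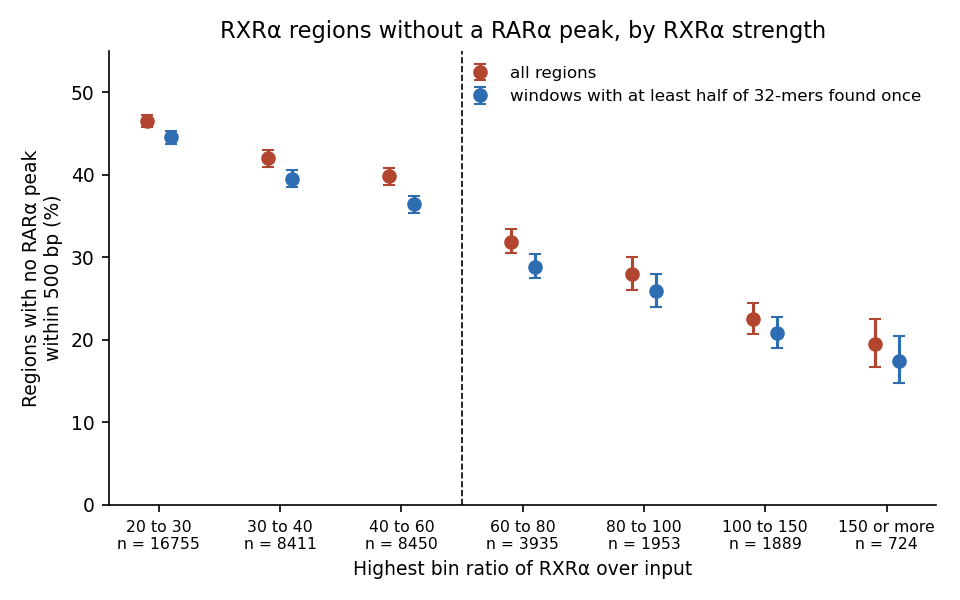
Percentage of RXRα regions with no RARα peak within 500 bp (vertical axis) in classes of the highest bin ratio (horizontal axis, with the number of regions), for all regions (red) and for those whose window has 50% or more of its 32-base words only once in the genome (blue); bars are 95% Wilson intervals and the dashed line marks the ratio of 60. The share falls from 46.5% to 19.5% over all regions and from 44.5% to 17.5% over the second set.

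Most members had a RARα peak within 10 kb. RARα peaks averaged 54.0 per Mb over the genome. How often other positions of the genome have a peak that near was not computed, so this cannot be called a trait of the members. The nearest RARα peak was a median of 5031 bp away (interquartile range 1989 to 14874), and it lay within 501 to 1000 bp for 233 members (9.84%). A RARα peak summit was found within 5 kb of 47.8% of members, within 10 kb of 66.4% and within 50 kb of 90.2% (89.0 to 91.4). For weaker regions without RARα these shares were 46.6%, 64.8% and 89.9%, so on this measure the members and the weaker regions were alike within 2 percentage points. Members had a median of 2 RARα peaks within 10 kb and strong regions with RARα had 6, of which 1 or more was required by the rule. The RARα peak nearest to a member had a median score of 13, against 20 for the peaks beside strong regions with RARα. The median was 12 for weaker regions without RARα and 12 over all peaks of the list, so 13 is an ordinary score. The nearest gene of a member had a RARα peak within 10 kb from its TSS for 1875 members (79.2%, 77.5 to 80.8), and for 5668 strong regions with RARα (92.4%, 91.7 to 93.1). Weaker regions without RARα had 80.1% (79.4 to 80.7). The contrast with regions with RARα is partly set by the rule. Those that lie within 10 kb from a TSS mostly bring a RARα peak of their own to that gene. A strong region with RARα lay within 10 kb of 483 members (20.4%, 18.8 to 22.1), against 17.6% (17.0 to 18.2) of weaker regions without RARα. At the other extreme, 125 members (5.28%) were more than 100 kb from any RARα peak, and 93 of these had windows made mostly of sequence that occurs more than once in the genome.

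The members lay farther from genes than the strong regions with RARα. Their median distance from the nearest protein-coding TSS was 28490 bp, against 18742 bp, and 29614 bp for weaker regions without RARα. The highest bin was within 1 kb from a TSS in 52 members (2.20%, 1.68 to 2.87) and in 672 strong regions with RARα (10.96%, 10.2 to 11.8). Weaker regions without RARα had 2.32% there (2.09 to 2.58), an interval that overlapped that of the members. Within 10 kb the shares were 24.1% (22.4 to 25.8), 35.9% (34.7 to 37.1) and 24.6% (23.9 to 25.3). Of the members, 49.8% were intergenic, 45.1% were in introns outside the first kb, 2.87% were in exons and 44.8% were upstream of their nearest TSS. The position of the members was thus close to that of weaker regions without a RARα peak, and unlike that of regions of their own strength with one. Weaker regions with a RARα peak within 500 bp had 22.3% within 1 kb from a TSS (21.7 to 22.9). The contrast therefore went with the RARα peak at both strengths, and since the rule selects on that peak, it is partly set by the rule.

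**Figure D3:**
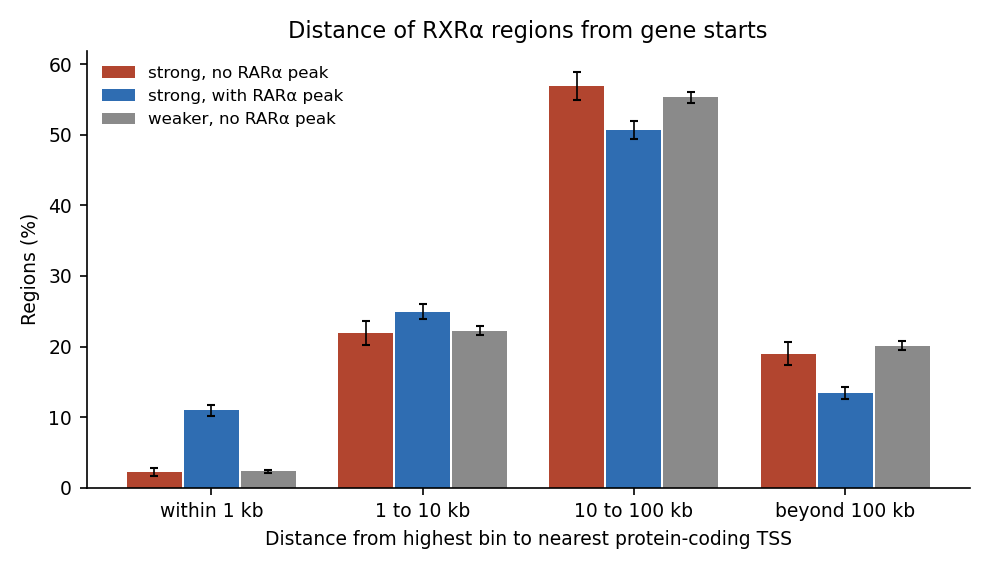
Percentage of regions (vertical axis) by distance of the highest bin from the nearest protein-coding TSS (horizontal axis), for strong regions without RARα (red, 2368), strong regions with RARα (blue, 6133) and weaker regions without RARα (grey, 14680); bars on top are 95% Wilson intervals. Within 1 kb the red and grey bars stand at 2.20% and 2.32% and the blue bar at 10.96%.

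Among the 52 members at promoters, the 8 with the highest ratios belonged to genes of several functions. The strongest was 700 bp downstream of the TSS of Pla2g12a, a secreted phospholipase, with a ratio of 166, and a RARα peak 575 bp away. Sult2a2, a hydroxysteroid sulfotransferase, had a member 151 bp upstream with a ratio of 149, and its nearest RARα peak was 221423 bp away. Sox12, a transcription factor gene, had a ratio of 146 at 138 bp upstream, and Serpina1a, which encodes an α1-antitrypsin, had 138 at 25 bp downstream. Dkk4, a secreted inhibitor of Wnt signalling, followed with 129, Kcnmb3, a potassium channel subunit, with 124, the urinary protein gene Mup12 with 123 and Osgin1 with 116. The windows of Sult2a2 and Mup12 had 0% and 18.8% of their 32-base words only once in the genome and that of Serpina1a 40%, so the reads under them can belong to a related gene.

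Half-sites were found in more members than in any set they were compared with. A window, reaching 100 bp to each side of that bin's centre, held at least 1 of the 4 half-sites in 1888 members (79.7%, 78.1 to 81.3), against 72.5% (71.4 to 73.6) of strong regions with RARα, 69.3% (68.6 to 70.05) of weaker regions without RARα, 64.8% of all RXRα regions, 38.3% (36.9 to 39.7) of windows 1 kb to either side of the members and 28.0% of all TSS windows. At least 3 half-sites were found in 424 members (17.9%, 16.4 to 19.5) and in 721 strong regions with RARα (11.8%, 10.97 to 12.6). Since stronger regions held half-sites more often, the comparison was also made within classes of ratio. From 60 to 70 the shares were 76.8% (73.7 to 79.7) and 66.9% (64.5 to 69.2), from 70 to 80 80.6% and 70.7%, from 80 to 100 79.3% and 71.5%, from 100 to 150 81.5% and 76.6%, and at 150 or more 88.7% (82.4 to 92.9) and 82.8% (79.6 to 85.7). Members were higher in each of the 5 classes, and the intervals were apart in all but the last 2 of them, which hold fewer members. Among members beyond 10 kb from a TSS the share was 81.0%, against 73.4% for strong regions with RARα beyond 10 kb. In windows with 50% or more of unique 32-base words it was 78.7% against 72.4%.

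AGGTCA was the most common form, in 44.5% of members and 40.5% of strong regions with RARα. GGGTCA was in 27.9% and 24.6%, AGTTCA in 31.8% and 24.7% and GGTTCA in 18.4% and 13.7%. Each of the 4 forms was thus more common in the members, and the intervals did not overlap for any of them. The forms were not counted apart in windows of unique sequence. A single family of copied sequence, described below, made up 89 members, and its printed window holds AGTTCA alone. How much such copies add to these shares was not tested. In the windows beside the members these forms were in 13.3%, 8.47%, 14.6% and 8.74%. Of the half-sites in member windows, 27.2% had their centre within 20 bp of the centre of the highest bin and 11.8% lay from 80 to 100 bp away, so they crowded toward the highest bin.

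Repeats in the strict form were rare. DR1, which is a pair of half-sites in the same direction with 1 base between them, was in 47 members (1.98%, 1.496 to 2.63), in 94 strong regions with RARα (1.53%, 1.25 to 1.87) and in 0.169% of the windows beside the members (0.0856 to 0.333), and 0.152% of all TSS windows held it. With 1 mismatch allowed over the 12 half-site bases, it was in 13.1% of members, 12.02% of strong regions with RARα and 2.09% of the windows beside members. DR0 was in 1.31% of members, DR2 in 1.06%, DR3 in 0.507%, DR4 in 0.802% and DR5 in 0.549%, where the number is the count of bases between the half-sites. Strong regions with RARα had 1.16%, 0.685%, 0.245%, 0.652% and 0.408%, and the interval of each overlapped that of the members. A direct repeat with 0 to 8 bases between was in 6.63% of members (5.70 to 7.70) and 5.67% of strong regions with RARα (5.12 to 6.28), and 73.1% of members held a half-site but no such repeat. The inverted repeat with 1 base between (IR1), the form known for FXR, was in 22 members (0.929%, 0.614 to 1.403) and 35 strong regions with RARα (0.571%, 0.411 to 0.793), and the everted repeat with 6 bases between (ER6), known for PXR and CAR, in 11 members (0.465%, 0.260 to 0.830) and 11 strong regions with RARα (0.179%, 0.100 to 0.321). The everted repeat with 8 bases between (ER8) was in 15 members (0.633%, 0.384 to 1.04) and 16 strong regions with RARα (0.261%, 0.161 to 0.423). The shares named here were each higher in the members, while DR6 and DR7 were lower, at 0.380% against 0.473% and 0.380% against 0.489%. All these intervals overlapped, which does not show that the shares were alike.

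**Figure D4:**
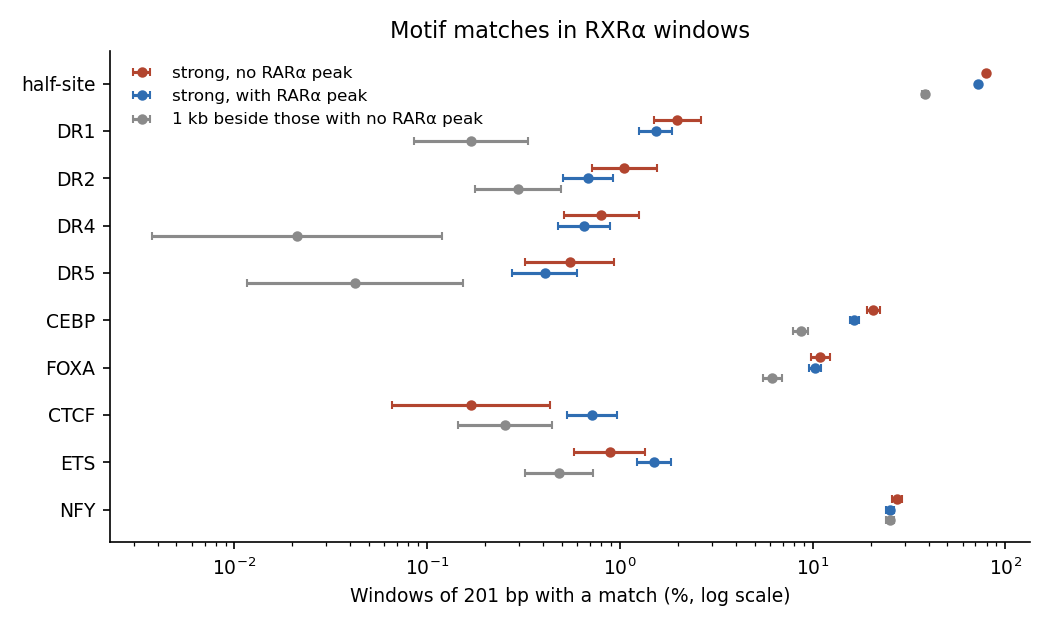
Percentage of windows around the highest bin with at least 1 match on either strand (horizontal axis, log scale) for each motif (vertical axis) in strong regions without RARα (red), strong regions with RARα (blue) and windows 1 kb beside the former (grey); bars are 95% Wilson intervals. Half-sites and CEBP stand higher in red than in blue, CTCF stands lower, and the DR intervals of red and blue overlap.

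The 8 strongest members with a strict DR1 are printed as 61 bases around it, on the strand that carries it, with both half-sites in capitals.

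Cyp2a4, chr7:27135425-27135485, minus strand: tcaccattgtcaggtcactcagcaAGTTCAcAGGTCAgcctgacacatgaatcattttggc
A730037C10Rik, chr3:54945522-54945582, plus strand: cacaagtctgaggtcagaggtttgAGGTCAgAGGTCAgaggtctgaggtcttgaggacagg
Foxn3, chr12:100669867-100669927, plus strand: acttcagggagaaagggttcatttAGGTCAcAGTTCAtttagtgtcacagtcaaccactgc
Uspl1, chr5:150008308-150008368, plus strand: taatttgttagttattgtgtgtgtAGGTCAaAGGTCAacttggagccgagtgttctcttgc
Ntrk2, chr13:58857676-58857736, plus strand: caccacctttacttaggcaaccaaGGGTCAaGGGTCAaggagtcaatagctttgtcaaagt
Ttc23l, chr15:10553662-10553722, minus strand: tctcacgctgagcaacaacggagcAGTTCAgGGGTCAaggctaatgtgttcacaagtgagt
Abca3, chr17:24498389-24498449, minus strand: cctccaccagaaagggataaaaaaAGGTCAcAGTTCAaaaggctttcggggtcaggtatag
Kcnk1, chr8:128500484-128500544, plus strand: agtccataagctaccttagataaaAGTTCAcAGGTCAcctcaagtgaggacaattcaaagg

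Their ratios ran from 114 to 199, and the nearest RARα peak lay between 939 and 21751 bp away. The region nearest to Cyp2a4, a steroid hydroxylase gene, was 43199 bp downstream of its TSS with 120 in RXRα and 0 in input, and 55.3% of the 32-base words in its window occurred once. The member in an intron by Abca3, a lipid transporter gene, was 9521 bp downstream of its TSS with a ratio of 117. Of the 8, those nearest to A730037C10Rik and Abca3 lay within 10 kb from the TSS of their nearest gene.

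Motifs of other liver factors were compared in the same windows. The CEBP motif TTGCNNAA was in 490 members (20.7%, 19.1 to 22.4), 16.5% (15.6 to 17.4) of strong regions with RARα, 8.68% of the windows beside members and 5.55% of TSS windows. In windows mostly of unique sequence the shares were 19.1% (17.5 to 20.8) and 16.4% (15.5 to 17.4), whose intervals came close without overlapping. Weaker regions without RARα had 18.5% (17.8 to 19.1). Within classes of ratio the intervals were apart from 60 to 70, at 22.5% (19.7 to 25.6) and 16.7% (14.9 to 18.6), and overlapped in the other 4 classes, with 16.4% and 15.9% from 100 to 150. FOXA motifs (TATTTAC or TGTTTAC) were in 10.98% and 10.3%, with overlapping intervals, against 6.19% beside the members. The CTCF motif was in 4 members (0.169%, 0.0657 to 0.434) and in 44 strong regions with RARα (0.717%, 0.535 to 0.962), and the ETS motif CCGGAAG in 0.887% (0.581 to 1.35) and 1.5% (1.23 to 1.84), against 9.38% of TSS windows. Among regions beyond 10 kb from a TSS the ETS shares were 0.667% and 0.890%, with overlapping intervals, while CTCF was in 0.167% (0.0568 to 0.489) and 0.738% (0.514 to 1.06). The windows of members had a median GC content of 46.8% against 49.8%, and 17.3% against 10.2% held no CG dinucleotide. Weaker regions without RARα were close to the members in these measures, with a median GC content of 46.3%, no CG dinucleotide in 15.9% and the CTCF motif in 0.293% (0.217 to 0.394).

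Sequence that occurs more than once in the genome was much more common among the members than among strong regions with RARα. Windows in which fewer than 50% of the 32-base words occurred once in the genome, called copied windows here, made up 294 members (12.4%, 11.1 to 13.8) and 45 strong regions with RARα (0.734%, 0.549 to 0.980). They made up 9.97% (9.50 to 10.5) of weaker regions without RARα, so copied windows went with the lack of a RARα peak in both classes of strength. Seen from the other side, 144 of the 152 strong regions with no word found once lacked a RARα peak (94.7%, 89.96 to 97.3), against 1906 of 7745 (24.6%, 23.7 to 25.6) with 90% or more. Weaker regions with no word found once lacked a RARα peak in 783 of 801 cases (97.8%). The study describes its reads as uniquely mapped, and a longer read can be unique where no 32-base word is. Whether reads that match several places were handled alike in the RXRα track and the RARα peak list was not tested. Leaving all copied windows out gave 2074 members, which were 25.4% of the remaining strong regions.

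Copied members formed families. Of the members, 246 (10.4%, 9.22 to 11.7) shared at least 40 words of 16 bases with another strong region, against 42 strong regions with RARα (0.685%, 0.507 to 0.924). The windows below come from the 2 most scattered families and from a pair of families of the Mup gene cluster. They are followed by the member with the most half-site matches, and all were picked after their values were seen.

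Family 1, chr7:106955789-106955989: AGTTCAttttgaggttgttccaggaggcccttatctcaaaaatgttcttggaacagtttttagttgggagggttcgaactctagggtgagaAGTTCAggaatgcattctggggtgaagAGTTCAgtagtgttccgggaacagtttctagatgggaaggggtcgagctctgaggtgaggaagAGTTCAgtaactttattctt
Family 2, chr4:12061965-12062165: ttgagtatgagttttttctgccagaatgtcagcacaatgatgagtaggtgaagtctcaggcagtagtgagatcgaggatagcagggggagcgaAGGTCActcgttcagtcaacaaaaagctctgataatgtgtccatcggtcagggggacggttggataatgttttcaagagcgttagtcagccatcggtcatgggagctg
Family 3, chr4:60987853-60988053: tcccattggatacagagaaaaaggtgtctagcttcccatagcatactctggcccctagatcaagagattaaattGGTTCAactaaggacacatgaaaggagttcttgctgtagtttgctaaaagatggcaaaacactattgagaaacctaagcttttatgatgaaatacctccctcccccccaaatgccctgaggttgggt
Family 4, chr4:60823181-60823381: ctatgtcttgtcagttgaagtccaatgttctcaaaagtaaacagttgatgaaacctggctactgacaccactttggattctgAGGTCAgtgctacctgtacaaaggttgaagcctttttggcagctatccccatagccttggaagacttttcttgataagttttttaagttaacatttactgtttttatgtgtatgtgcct
Lrrn3, chr12:43329293-43329493: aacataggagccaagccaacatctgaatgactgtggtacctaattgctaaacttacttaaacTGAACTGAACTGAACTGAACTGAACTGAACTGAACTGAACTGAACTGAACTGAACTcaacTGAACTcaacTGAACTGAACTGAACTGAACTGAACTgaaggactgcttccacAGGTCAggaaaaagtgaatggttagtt

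The largest family held 100 strong regions on 19 chromosomes, 89 of them members, with ratios from 61.4 to 166. All 100 windows held a half-site, with a median of 3, and the words in their windows occurred a median of 163.5 times in the genome. A stretch of 30 bases shared by 79 of the 100 windows was found 448 times on 21 chromosomes. Of these copies, 430 (96.0%) fell in an RXRα region and 89 (19.9%) in a strong one, and 15 (3.35%) had a RARα peak within 500 bp. RXRα coverage in the highest bin near a copy had a median of 32 (interquartile range 27 to 40), and input had a median of 2. RXRα coverage was thus of a like level over most copies, and a minority of them passed the ratio of 60. In the windows of this family a median of 0% of the 32-base words occurred once in the genome. Reads may therefore not be assignable to 1 copy, and which of the copies were bound was not tested. The second family had 14 strong regions, all members, on 7 chromosomes. The 30 bases shared by 11 of its windows include a half-site and occurred 87 times, 73 of them (83.9%) in an RXRα region and 0 with a RARα peak within 500 bp.

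Another group of families lay in the Mup gene cluster, which encodes the major urinary proteins, pheromone-binding proteins that male mouse liver secretes in large amounts. The cluster spans 1.84 Mb of chromosome 4 from 59969676 to 61811897 with 21 annotated Mup genes. It held 177 RXRα regions and 42 strong ones, of which 41 were members, and all 41 had copied windows. The lowest of their ratios was 60.5, the median 99.99 and the highest 257, and 34 of them held a half-site. RXRα coverage over the cluster was 5.88 times the genome mean and input 1.86 times. RARα peaks were fewer there, with 32 peaks or 17.4 per Mb against 54.0 per Mb in the genome. Several families recurred from gene to gene. One had 7 strong regions, all members, at a median of 9578 bp from a Mup TSS, and each held a half-site. Another had 6 strong regions, of which 5 were members, at a median of 159 bp from a TSS, and 0 of them held a half-site. Because the gene copies are nearly identical, a region cannot be assigned to 1 Mup gene.

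Members were also repeated beside other gene families. Serpina1 genes had 2 families with 5 members in all, Sult2a genes 3 members at 151 bp or more from a TSS, the transporter genes Slc22a28 and Slc22a30 3, and the genes Gm13275, Gm13279, Gm13287 and Gm13289 4. Tandem arrays of half-sites inside 1 window were a different case. A window 1117054 bp upstream of Lrrn3 held 18 half-site matches, which was the most of any member, with a ratio of 79.6. Most of these matches were TGAACT in runs where each shared a base with the next, so they are not 18 separate half-sites. The window of Cpne5 held 12 matches, a window near Kcnk1 11 and one downstream of the Ulk4 TSS 10. With that of Lrrn3 included, the share of words found once in these windows lay between 56.5% and 78.2%.

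Some genes were nearest to several members. Mup13 had 7 and Mup14 5, all in copied windows. Mtrr, which encodes methionine synthase reductase, had 6, also all copied, at 146582 to 347254 bp. Gadd45a, a growth arrest gene induced by DNA damage, had 6 in unique windows at 38699 to 112277 bp from its TSS, with ratios from 69.7 to 136 and RARα peaks at 6911 to 35227 bp. Tbl1xr1, a subunit of the nuclear receptor corepressor complex, had 5 in unique windows with ratios from 66.4 to 196, and 10 strong regions with RARα had it as their nearest gene too. Sox9, Dbx1 and Myc also had 5 each. In all, 1911 genes were nearest to a member, 1558 of them to 1 and 76 to 3 or more.

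A member lay within 10 kb from the TSS of 619 of 22225 protein-coding gene symbols, which is 2.79%. A strong region with RARα did so for 2146, which is 9.66%, and 154 genes had both. The genes with a member only numbered 465, and 116 of the genes with a member had no RARα peak at all within 10 kb. The share of all genes without such a peak was not worked out. This count, and counts of genes with or without a RARα peak in the lists below, therefore have no background. The gene lists below are read against the 2.79% and the 9.66%. Every metabolic list had a member at more of its genes than the 2.79% background, as it had a strong region with RARα at more than the 9.66%. Lists of this kind were chosen for liver and for RXRα partners, so their excess over all genes says nothing particular about the absence of RARα.

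**Figure D5:**
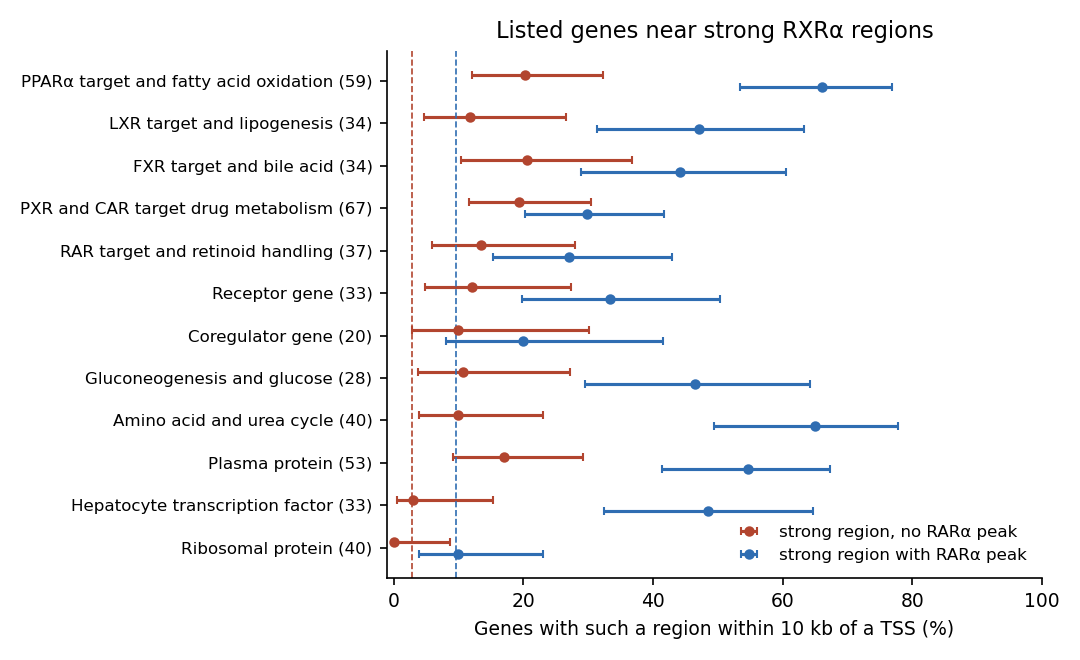
Percentage of the genes of each list (vertical axis, number of genes in brackets) with a strong RXRα region within 10 kb from a TSS (horizontal axis), for regions without RARα (red) and with RARα (blue); bars are 95% Wilson intervals and dashed lines are the shares over all genes, 2.79% and 9.66%. Red ranges from 0% of ribosomal protein genes to 20.6% of FXR targets, and blue stands to the right of red in every list.

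Targets of PPARα and enzymes of fatty acid oxidation had a member at 12 of 59 genes (20.3%, 12.04 to 32.3) and a strong region with RARα at 39. Cyp4a10, a fatty acid ω-hydroxylase and classical PPARα target, had a member 4197 bp upstream with 183 in RXRα and 1 in input, and a single RARα peak within 10 kb. Only 56.5% of the 32-base words in its window occurred once in the genome, so some of its reads can belong to a related gene. The acyl-CoA thioesterase genes Acot3 and Acot4 shared a member with 173 in RXRα and 1 in input, 9622 bp upstream of the first and 4143 bp downstream of the second. Cyp4a32 had one with a ratio of 113. The other 8 genes had ratios from 66.4 to 113, and Vnn1 was the 1 gene of the 12 with no RARα peak within 10 kb.

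Among LXR targets and lipogenic genes, 4 of 34 had a member (11.8%, 4.67 to 26.6) and 16 a strong region with RARα. The member by Thrsp, a regulator of lipogenesis, was 1168 bp upstream with 185 in RXRα and 1 in input, and a RARα peak of score 31 lay 865 bp away. Gpam, which starts glycerolipid synthesis, had a ratio of 134 in an intron, Dgat2, which completes triglyceride synthesis, 110 at 8921 bp upstream, and Mlxipl, the carbohydrate response factor ChREBP, 94.6 at 2521 bp upstream. All but Dgat2 had a strong region with RARα within 10 kb as well.

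Bile acid genes and FXR targets had a member at 7 of 34 genes (20.6%, 10.4 to 36.8) and a strong region with RARα at 15. Cyp7a1, the rate-limiting enzyme of bile acid synthesis, had a member 2964 bp upstream with 79 in RXRα and 1 in input, 2353 bp from a RARα peak of score 60. Klb, the coreceptor of the FGF hormone that represses Cyp7a1, had a ratio of 101.2 in an intron 8711 bp downstream of its TSS. Kng1 and Fetub, which encode the plasma proteins kininogen and fetuin-B, had 106 and 99.6. Each of the 7 genes had a RARα peak within 10 kb.

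Among drug metabolism genes under PXR and CAR, a member lay near 13 of 67 genes (19.4%, 11.7 to 30.4) and a strong region with RARα near 20 (29.9%, 20.2 to 41.7), and 0 genes had both. Over all genes, 154 of the 619 with a member had both. The coregulator, glucose and hepatocyte transcription factor lists also had 0, but only 2, 3 and 1 of their genes had a member. Counts this small do not show whether the 0 of 13 is particular to the list. For 6 of the 13, Cyp3a44, Cyp2c37, Cyp3a59, Cyp2a4, Cyp3a41a and Cyp2c55, no RARα peak lay within 10 kb, all of them genes of cytochrome P450 clusters. Cyp3a44 had 109 in RXRα and 0 in input in an intron 5530 bp downstream of its TSS, with the nearest RARα peak 78943 bp away, but 48.2% of the words in its window occurred once. Cyp2c39 had 103 in RXRα and 0 in input 1112 bp upstream, in the window printed above with 3 half-sites, 2 of them adjoining in a DR0. Cyp2d9 followed with a ratio of 119 and 49.4% of words found once, and Cyp2c37 with 105 at 2765 bp upstream and 94.7%. With copied windows left out, 10 of the 67 genes had a member, so the count for this list rests in part on sequence shared between P450 genes.

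Retinoic acid targets and retinoid enzymes had a member at 5 of 37 genes (13.5%, 5.91 to 28.0) and a strong region with RARα at 10. Cyp26a1, which hydroxylates retinoic acid and is a classical RAR target, had a member 4742 bp downstream of its TSS with 264 in RXRα, the highest coverage among the list members described here, and 3 in input. Its window, printed above, held 3 half-sites, a pair of them in the same direction with 2 bases between (DR2), and a RARα peak of score 25 began 1039 bp away, so the member counted as lacking RARα only at distances below about 1 kb. Cdx1 and Hoxd4, homeobox genes under retinoic acid control, had ratios of 110 and 78.0, and Tgm2, a transglutaminase, 99.6. All 5 genes had at least 1 RARα peak within 10 kb.

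Of the nuclear receptor genes, 4 of 33 had a member (12.1%, 4.82 to 27.3), and each of the 4 had a strong region with RARα too. Nr1d2, the circadian repressor REV-ERBβ, had 78 in RXRα and 0 in input in an intron 2089 bp downstream of its TSS, with a RARα peak 937 bp away. Ppara had a ratio of 78.0, Nr1i2, the gene of PXR, 71.4, and Ppard 63.996, all in introns. Of the coregulator genes 2 of 20 had a member, the deacetylase gene Hdac4 with 76.0 and the corepressor gene Nrip1 with 64.7.

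Glucose metabolism genes had a member at 3 of 28 (10.7%) and a strong region with RARα at 13. Ppp1r3b, which targets a phosphatase to glycogen, had a ratio of 116, Slc2a2, the hepatic glucose transporter GLUT2, 110 at 2153 bp upstream, and the fructokinase gene Khk 73.0, and none of the 3 had a strong region with RARα within 10 kb. Amino acid and urea cycle genes had a member at 4 of 40 (10%) against 26 with a strong region with RARα: Hpd of tyrosine breakdown with 128, Cth of cysteine synthesis with 87.9, Kmo of tryptophan breakdown with 69.995 and Mat1a, which makes S-adenosylmethionine, with 63.0.

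Plasma protein genes had a member at 9 of 53 (17.0%, 9.20 to 29.2) and a strong region with RARα at 29. Serpina6, the corticosteroid-binding globulin, had 118 in RXRα and 0 in input 3058 bp upstream, a ratio of 196. Serpina1a had 138, coagulation factor gene F5 114 and Apoa2, an apolipoprotein of HDL, 92.9, and the other 5 had 61.4 to 79.995. Hepatocyte transcription factor genes had a member at 1 of 33, Atf5 with 179, while 16 had a strong region with RARα (48.5%, 32.5 to 64.8). Ribosomal protein genes had a member at 0 of 40, where 4 had a strong region with RARα.

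Markers of liver cell types were looked at by the same distance, although binding near a gene is not a measure of its expression. A member lay within 10 kb of 1 of 8 hepatocyte markers, Serpina1a, and 1 of 10 stellate cell markers, Pdgfrb. With copied windows left out, 0 of the 8 hepatocyte markers and 1 of the 10 stellate cell markers had a member. None of the markers of Kupffer cells (8), sinusoidal endothelium (8), bile duct (6), adipocytes (5), T cells (5) or neurons (5) had one. Strong regions with RARα lay near 2 of the hepatocyte markers, 1 of the Kupffer and 2 of the adipocyte markers and 0 of the others. With so few genes a list, these counts do not place the members in a cell type.

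The limits of the set were sharp in the rule and gradual in the data. Just above a ratio of 60 were members nearest to Mup16 (60.5), Bivm and Col3a1 (60.996 each), and just below it were 22 regions at 59.996, such as those nearest to Larp4b and Gm3839, with 60 in RXRα and 1 in input. On the side of RARα, the members nearest to Polr2l, 9630014M24Rik and 3010026O09Rik had peaks at 504, 509 and 511 bp, and the regions nearest to Brp44l and Fgl1 were left out with peaks at 499 and 497 bp. When RARα peaks with a score of at most 20 were not counted, the members rose to 5293 of 8501 strong regions (62.3%).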

How the data were processed

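Livers were ground in liquid nitrogen, fixed and sonicated, and chromatin was precipitated with antibodies to RXRα or RARα, with an input library beside them. Per the labels and methods the reads were sequenced singly and processed with CASAVA 1.4, Bowtie and MACS. The methods name one mouse build for alignment and NCBI37/mm9 for annotation, and the file headers give mm9, which was used. The deposited RXRα and input files hold signal, the coverage of extended reads in bins of 32 bp, with no further scaling; each read covers 5 bins. The deposited RARα list gives each peak's position, a score, and a false discovery rate in percent of at most 4.75. The authors describe the reads as uniquely mapped, and the settings behind this, or whether they hold for each deposited file, are not given in the sources used here.

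RXRα coverage was multiplied so that its mean equalled that of input, 0.603 a bin, and each RXRα bin was divided by the larger of its input bin and the mean input. Bins at 20 or more were joined within 200 bp. Distances to RARα peaks were taken edge to edge, and distances to 22367 protein-coding TSSs of GENCODE M1 from the highest bin. Motifs were matched on both strands within 100 bp of the centre of the highest bin, and every 32-base word of a window was counted in the genome on both strands. CTCF was searched by its consensus. Steps were tested on simulated data with planted regions. Python 3.11.15, numpy 2.4.6, pandas 2.3.3, scipy 1.17.1, pysam 0.24.0, numba 0.67.0 and matplotlib 3.10.9 were used.

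With 1 library per antibody no test between conditions was made, and shares carry 95% Wilson intervals. The members and gene lists were chosen with earlier results of these data known. Named were the nearest genes of the 20 strongest members, up to 4 genes a list by ratio, the 8 strongest promoter members, the 5 genes nearest to most members, and regions next to each threshold; other genes were chosen after their values were seen. A few genes that this rule names are not reported here.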

Additional observations from a re-analysis of the deposited data

How the results depend on the processing

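Of 61 alternative values, 34 stayed within the spread set for them and 27 moved. Members numbered 3614 (30.6% of strong regions), 1113 (24.4%) and 567 (21.7%) with ratios of 50, 80 and 100. At 100, 27.9% lay within 10 kb from a TSS, the median distance was 23361 bp and 2.65% held a DR1. With RARα peaks looked for at 0, 1000 and 5000 bp the shares were 31.5%, 25.1% and 13.9%, and at 5000 bp there were 1185 members, 17.4% of them within 10 kb from a TSS at a median of 37476 bp. Counting only RARα peaks with a score above 20 gave 5293 (62.3%), the mean input alone 6810 (32.6%) and the largest input within 1 kb 14 (24.1%). A strict DR1 was in 1.44% of windows of 50 bp to each side. With 1 mismatch, a DR1 was in 13.1% of windows of 100 bp to each side. Within 1 kb from a TSS, 52 genes had a member. Chosen after seeing the data, windows mostly of sequence found once gave a share of 25.4%, and half-sites were in 61.4% of windows of 50 bp to each side and 89.5% of 200 bp to each side. The causes were not tested, beyond the size of window or distance that each alternative sets. The share of repeat-masked bases was not run. No paired analysis was possible because there is 1 library per antibody. Most highest bins had an input of 0, so a single ratio rests on few or no input reads, and the part of depth in this was not tested.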

Other observations

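On the X chromosome 44 of 77 strong regions had no RARα peak within 500 bp (57.1%, 95% Wilson interval 46.0 to 67.6), against 2322 of 8422 on the autosomes (27.6%), where the share ran from 21.5% on chromosome 15 to 33.9% on chromosome 19. With copied windows left out the shares were 49.2% and 25.2%. The X chromosome had 0.462 strong regions and 10.3 RARα peaks per Mb, against 3.41 and 57.3 on the autosomes, and its input coverage was 0.328 per bin against 0.6. Males have a single X chromosome, and the part of copy number and coverage in the difference was not tested.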
